A study of Brassica napus with 27 samples.

Results

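TOC33 and GAPDH.1 of oilseed rape (Brassica napus) are described across all 9 groups of a leaf RNA sequencing study. They are the genes LOC106377345, named TOC33 and placed on chromosome C8 in RefSeq, and LOC106382350, named GAPDH.1 and placed on chromosome A8. Both were taken from the count table by these identifiers, and they are 2 of its 119532 gene entries. The pair was chosen by measured values, the RNA levels of each genotype set against those of another, so differences between genotypes are given as a description with no test. The working name of the pair calls them dosage-shifted, but DNA copy number was not measured here, and only RNA levels are described.

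The groups come from a CRISPR/Cas9-edited single line (bnaa06fah, edited in BnaA06FAH), an edited double line (bnafah, edited in BnaA06FAH and BnaC05FAH) and wild-type Westar. The edited genes encode fumarylacetoacetate hydrolase, which acts in tyrosine breakdown. Each genotype was sampled in long days (LD) and 1 day (SD1) and 2 days (SD2) after a move to short days, with 3 libraries a group and 27 in all. The labels list no long-day libraries from the later days, so a change with short days cannot be told apart from time or leaf age. Both lines are described as free of the transgene, and each is 1 line, so a difference of a line cannot be told apart from other changes that line carries. The labels speak of knock-downs and of null alleles for the same lines, they print the same hours of light for long and short days, and they give no leaf age beyond the growth schedule, so the group names are used as given.

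TOC33 is a GTP-binding receptor of the outer chloroplast envelope. In Arabidopsis it recognises precursor proteins made in the cytosol and hands them to the import channel, and mutants that lack it are pale when young. GAPDH is glyceraldehyde phosphate dehydrogenase, an enzyme of glycolysis in the cytosol and, in other forms, of carbon fixation in the chloroplast. The sources used here do not say which compartment GAPDH.1 belongs to. Brassica napus is an allotetraploid that carries an A and a C genome, so most genes have a close counterpart on the other genome, and how the authors treated reads that match both is not given in the sources used here.

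Total counts ran from 49700646 to 58862542 per library, and 72039 genes, both TOC33 and GAPDH.1 among them, had enough counts to be tested. At SD2, double-line replicates 2 and 3 had a correlation of log2 CPM (counts scaled to library size) of 0.883, the lowest of any replicate pair, and replicates 1 and 2 of that group 0.899, so values of this group are also given without replicate 2 where that replicate matters. The labels do not say that replicates came from separate plants, so p-values measure the spread between these libraries. The leaf markers rbcL and psbA, both plastid genes, were counted in every library (135 to 304 and 58 to 789 counts), and 2 seed storage and oil body markers were at 0 in all. All plastid genes together held only 0.00622% to 0.0230% of counts per library, so the sum of these leaf markers need not follow the cells sampled. All levels below are CPM on TMM-scaled library sizes, mean ± SD of 3 libraries, unless FPKM (a deposited measure that corrects for gene length) is named.

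TOC33 was low in every library of the single line. The single line had 16.3, 9.80 and 16.0 CPM of TOC33 in LD, 11.3, 11.7 and 6.71 CPM at SD1, and 8.22, 8.21 and 9.56 CPM at SD2. The double line had 31.5, 36.0 and 55.2 CPM in LD, 32.4, 46.7 and 53.8 CPM at SD1, and 34.2, 50.1 and 30.7 CPM at SD2. Wild type had 47.8, 76.2 and 64.5 CPM in LD, 64.3, 32.7 and 43.5 CPM at SD1, and 26.9, 34.7 and 27.9 CPM at SD2. Every library of the single line lay below every library of the other genotypes, whereas double line and wild type overlapped at each stage. These levels rest on 349 to 830 counts per library in the single line, 1556 to 3105 in the double line and 1534 to 3679 in wild type, so counting error is small beside the spread between replicates.

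GAPDH.1 was high in every library of the single line. The single line had 203.6, 216 and 190.0 CPM of GAPDH.1 in LD, 224, 214 and 264 CPM at SD1, and 356, 323 and 310.1 CPM at SD2. The double line had 93.9, 134 and 113 CPM in LD, 111, 144 and 113 CPM at SD1, and 170.1, 130.2 and 133 CPM at SD2. Wild type had 111, 88.2 and 94.3 CPM in LD, 117, 96.1 and 89.5 CPM at SD1, and 105, 123 and 98.1 CPM at SD2. The lowest single-line library stood above the highest library of the double line (190.0 against 170.1 CPM). Double line and wild type overlapped in LD and at SD1, and at SD2 the 3 double-line libraries lay above the 3 of wild type, the closest being 130.2 against 123 CPM. How many of all tested genes separate in this way was not counted.

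**Figure D1:**
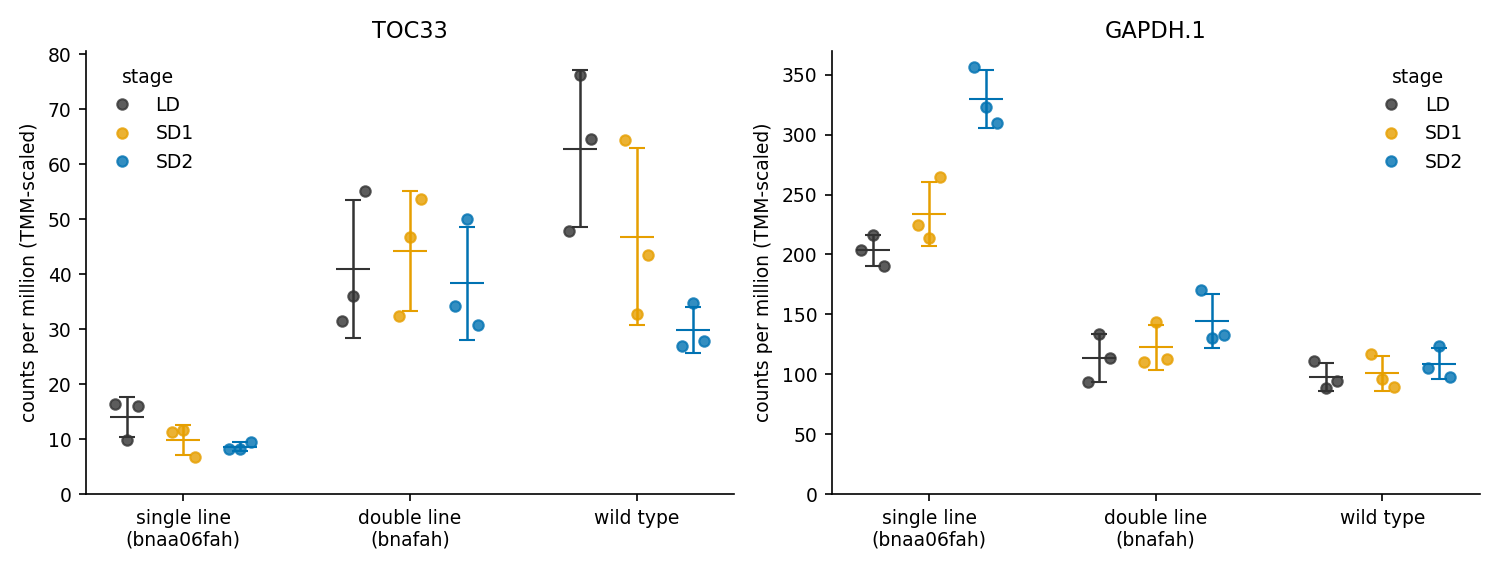
TOC33 (left) and GAPDH.1 (right) in CPM on TMM-scaled library sizes, for the single line, the double line and wild type in long days (LD) and after 1 day and 2 days of short days (SD1, SD2); dots are libraries, and bars are the mean and SD of 3 libraries. The single-line dots run from 6.71 to 16.3 CPM for TOC33 and from 190.0 to 356 CPM for GAPDH.1, apart from both other genotypes.

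In fold terms the difference of the single line from wild type was larger for TOC33. TOC33 averaged 14.04 ± 3.67 CPM in the single line and 62.9 ± 14.3 CPM in wild type in LD (n = 3 each), a log2 difference of -2.16 ± 0.30 (SE). The difference was -2.24 ± 0.30 at SD1 and -1.78 ± 0.30 at SD2, which puts the single line at 22.3%, 21.1% and 29.0% of wild type from LD to SD2. The smaller difference at SD2 came with a lower wild-type level, described below.

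GAPDH.1 averaged 203 ± 13.1 CPM in the single line and 97.8 ± 11.8 CPM in wild type in LD (n = 3 each), a log2 difference of 1.06 ± 0.18 (SE), or 2.08-fold. It was 1.21 ± 0.18 at SD1, or 2.32-fold, and 1.60 ± 0.18 at SD2, or 3.03-fold. The gap to wild type was therefore widest at SD2 for GAPDH.1 and narrowest at SD2 for TOC33.

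The double line lay closer to wild type than the single line did for both genes. Its log2 difference from wild type for TOC33 was -0.62 ± 0.29 in LD, -0.08 ± 0.29 at SD1 and 0.36 ± 0.29 at SD2, and the libraries overlapped at all 3 stages. Without replicate 2 of the double line at SD2, the last of these was 0.12. For GAPDH.1 the difference was 0.22 ± 0.18 in LD, 0.28 ± 0.18 at SD1 and 0.41 ± 0.18 at SD2, all above 0 and smaller than those of the single line. The largest differences put the double line at 65.1% of wild type for TOC33 in LD and at 1.33-fold for GAPDH.1 at SD2.

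Set against the single line, the double line had more TOC33 and less GAPDH.1 at each stage, with no overlap of libraries. The log2 difference of the double from the single line was 1.54, 2.16 and 2.15 for TOC33 and -0.84, -0.93 and -1.19 for GAPDH.1 in LD, at SD1 and at SD2. BnaA06FAH is edited in both lines and BnaC05FAH in the double line only, and the part of either edit in these levels was not tested. These comparisons share their single-line, double-line and wild-type libraries with those above.

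Ranked by mean, GAPDH.1 was highest in the 3 single-line groups, then the 3 double-line groups, then the 3 wild-type groups, and within each genotype the order was SD2, SD1, LD. Neighbours in that order were separate, library by library, only between SD2 and SD1 of the single line and between LD of the single line and SD2 of the double line. TOC33 was highest in wild type in LD (62.9 ± 14.3 CPM), followed by wild type at SD1 (46.8 ± 16.1 CPM), the double line at SD1 (44.3 ± 10.9 CPM), in LD (40.9 ± 12.6 CPM) and at SD2 (38.3 ± 10.3 CPM), and wild type at SD2 (29.8 ± 4.25 CPM). The single line came last, with 14.04 ± 3.67 CPM in LD, 9.89 ± 2.76 CPM at SD1 and 8.66 ± 0.776 CPM at SD2. Only wild type at SD2 and the single line in LD were separate among neighbours in that order.

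Changes with short days within a genotype were not what the genes were chosen for, and they were tested. They use the same libraries as the genotype differences, so they are not independent of that choice. For each gene 1 of 6 such tests was called (edgeR quasi-likelihood test, adjusted p under 0.05 over all tested genes of a comparison). In wild type, TOC33 fell to 29.8 ± 4.25 CPM at SD2, against 62.9 ± 14.3 CPM in LD, a log2 change of -1.08 ± 0.29 (SE, adjusted p = 0.0340). All 3 SD2 libraries lay below all 3 LD libraries. In this comparison 2.65% of all tested genes were called lower and 5.87% in either direction. The edgeR call was lost without wild-type LD replicate 2 (adjusted p = 0.132), LD replicate 3 (0.123), SD2 replicate 1 (0.146) or SD2 replicate 3 (0.106), with log2 changes from -1.24 to -0.91 over the 6 fits that each leave out 1 library. Between these groups the leaf markers rbcL and psbA summed to 10.4 to 13.2 raw CPM at SD2, against 4.23 to 8.48 in LD, and 5 vascular markers to 57.4 to 85.5 raw CPM at SD2, against 34.9 to 57.9 in LD. Taken alone, rbcL averaged 3.37 ± 0.327 CPM at SD2, against 4.20 ± 1.03 CPM in LD, so it did not share the rise of the leaf sum. Among the 5 vascular markers, SUT2-1, a sucrose transporter, had 138 to 4603 counts per library, against at most 562 for any CesA gene. Their sum can therefore follow SUT2-1 more than the others. The part of the leaf and vascular markers in the change of TOC33 was not tested. In whole leaves, fewer cells of a type and less RNA per cell cannot be told apart.

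The other tests of TOC33 were not called. In the single line TOC33 stood at 8.66 ± 0.776 CPM at SD2, against 14.04 ± 3.67 CPM in LD, a log2 difference of -0.70 ± 0.29 (edgeR adjusted p = 0.131). In that comparison 9.97% of tested genes were called. The 3 SD2 libraries lay below the 3 LD libraries, but the share of all tested genes that separate in this way was not counted. In the double line the SD2 difference was -0.09 ± 0.29, with a 95% interval of -0.69 to 0.50 (edgeR adjusted p = 0.871) where 15.7% of tested genes were called, and -0.33 (0.471) without SD2 replicate 2. The SD1 differences from LD were -0.51 in the single line, 0.12 in the double line and -0.42 in wild type (edgeR adjusted p = 0.468, 0.928 and 0.522), in comparisons that called 0.268%, 0.271% and 0.112% of tested genes.

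GAPDH.1 rose in the single line, to 329.8 ± 23.9 CPM at SD2, against 203 ± 13.1 CPM in LD. The log2 change was 0.70 ± 0.18 (SE, edgeR adjusted p = 0.0167), and the 3 SD2 libraries lay above the 3 LD libraries. In this comparison 5.06% of tested genes were called higher and 9.97% in either direction. The edgeR call was lost without single-line LD replicate 1 (adjusted p = 0.0567), LD replicate 3 (0.0714) or SD2 replicate 1 (0.0758), while the change itself stayed between 0.64 and 0.74. The leaf markers summed to 8.00 to 14.9 raw CPM at SD2, against 6.94 to 9.85 in LD, and the vascular markers to 61.6 to 66.9 raw CPM at SD2, against 43.0 to 62.1 in LD. Here too rbcL alone did not rise, with 3.40 ± 1.56 CPM at SD2, against 5.36 ± 1.16 CPM in LD. The vascular sum was not split by gene, and the part of the leaf and vascular markers in the change of GAPDH.1 was not tested.

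GAPDH.1 in the double line was 144 ± 22.3 CPM at SD2, against 114 ± 20.03 CPM in LD, a log2 difference of 0.34 ± 0.18 that was not called (edgeR adjusted p = 0.193). In wild type it was 109 ± 13.0 CPM at SD2, against 97.8 ± 11.8 CPM in LD, a difference of 0.16 with a 95% interval of -0.21 to 0.52 (edgeR adjusted p = 0.640). At SD1 none of the 3 genotypes was called, with log2 differences from LD of 0.20 in the single line, 0.11 in the double line and 0.04 in wild type (edgeR adjusted p = 0.673, 0.874 and 0.947).

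**Figure D2:**
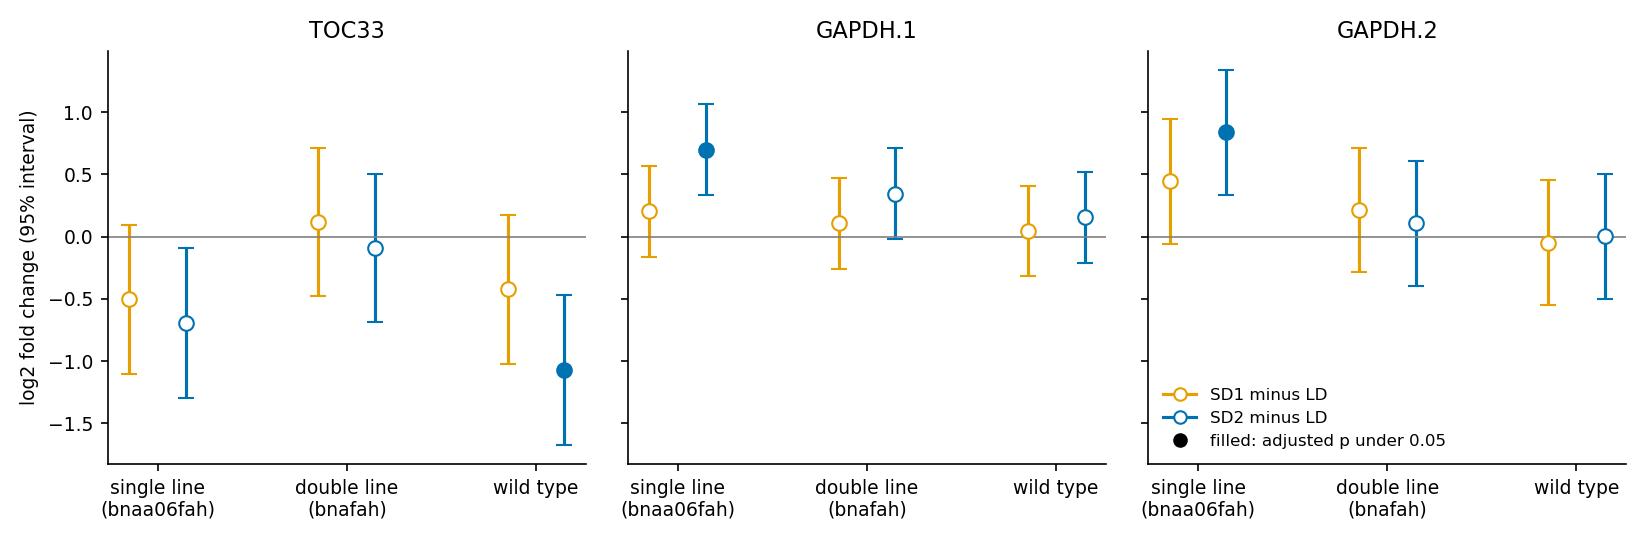
Log2 fold changes of TOC33, GAPDH.1 and GAPDH.2 from long days to SD1 and SD2 in the single line, the double line and wild type. The 95% intervals were derived from the fold change and F statistic of the edgeR test. Filled symbols passed an edgeR adjusted p of 0.05. TOC33 is filled only for wild type at SD2 (-1.08), and GAPDH.1 only for the single line at SD2 (0.70).

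Whether a line changed differently from wild type was tested separately, and neither gene passed in any of these 4 comparisons. At SD1 the comparisons of the single and the double line with wild type called 0.00278% and 0% of tested genes. For TOC33 the SD2 change of the double line exceeded that of wild type by 0.98 ± 0.41 (95% interval 0.14 to 1.83, edgeR adjusted p = 0.147), in a comparison that called 6.17% of tested genes, 4446 genes in all and 10 to 10643 when 1 library was left out. For the single line the excess was 0.38 ± 0.41 (edgeR adjusted p = 0.847). For GAPDH.1 the SD2 change of the single line exceeded that of wild type by 0.54 ± 0.25 (95% interval 0.03 to 1.06, edgeR adjusted p = 0.568). That comparison called 0 genes with edgeR, although 6185 genes had an unadjusted p under 0.05 and DESeq2 called 149. The double line's excess was 0.19 ± 0.25 (edgeR adjusted p = 0.711).

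GAPDH.2 (LOC106450737, on chromosome C5) is the only other gene named GAPDH in the table, and it did not share the genotype difference of GAPDH.1 in LD. GAPDH.2 averaged 261 ± 35.4 CPM in the single line, 309.7 ± 54.8 CPM in double-line leaves and 322 ± 79.1 CPM in wild-type leaves in LD, with overlapping libraries. At SD2 it averaged 467 ± 42.7 CPM in the single line, 333 ± 68.5 CPM in double-line leaves and 322 ± 48.5 CPM in wild-type leaves. There the single-line libraries lay above all those of the double line and wild type, the closest being 419 against 409 CPM. Within the single line GAPDH.2 rose by SD2, with a log2 change of 0.84 ± 0.24 (edgeR adjusted p = 0.0325), close to the 0.70 of GAPDH.1. The edgeR call for GAPDH.2 was lost on leaving out any library of the 2 groups other than SD2 replicate 3, with adjusted p up to 0.130. In wild type the SD2 change of GAPDH.2 was 0.00 ± 0.24, and the single line's excess over wild type, 0.84 ± 0.34, was not called (edgeR adjusted p = 0.526).

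Per length, GAPDH.1 made up a larger part of the 2 named GAPDH genes in the single line. Its share of their summed FPKM was 33.5% to 41.2% over the 9 single-line libraries, 19.7% to 28.7% over the 9 double-line libraries and 18.4% to 25.7% over the 9 wild-type libraries. The share in the single line was 39.5% ± 1.70 in LD, 35.4% ± 1.82 at SD1 and 37.2% ± 1.87 at SD2 (SD, n = 3 each), so it did not climb with the rise of GAPDH.1. Both genes rose together in that line, and their summed FPKM was 564 ± 68.2 at SD2, against 298 ± 17.03 in LD. The FPKM of GAPDH.1 was 8.23 to 35.8 times that of TOC33 in single-line libraries (median 16.1), 1.72 to 4.05 times in double-line libraries (2.51) and 0.940 to 3.19 times in wild-type libraries (1.81).

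**Figure D3:**
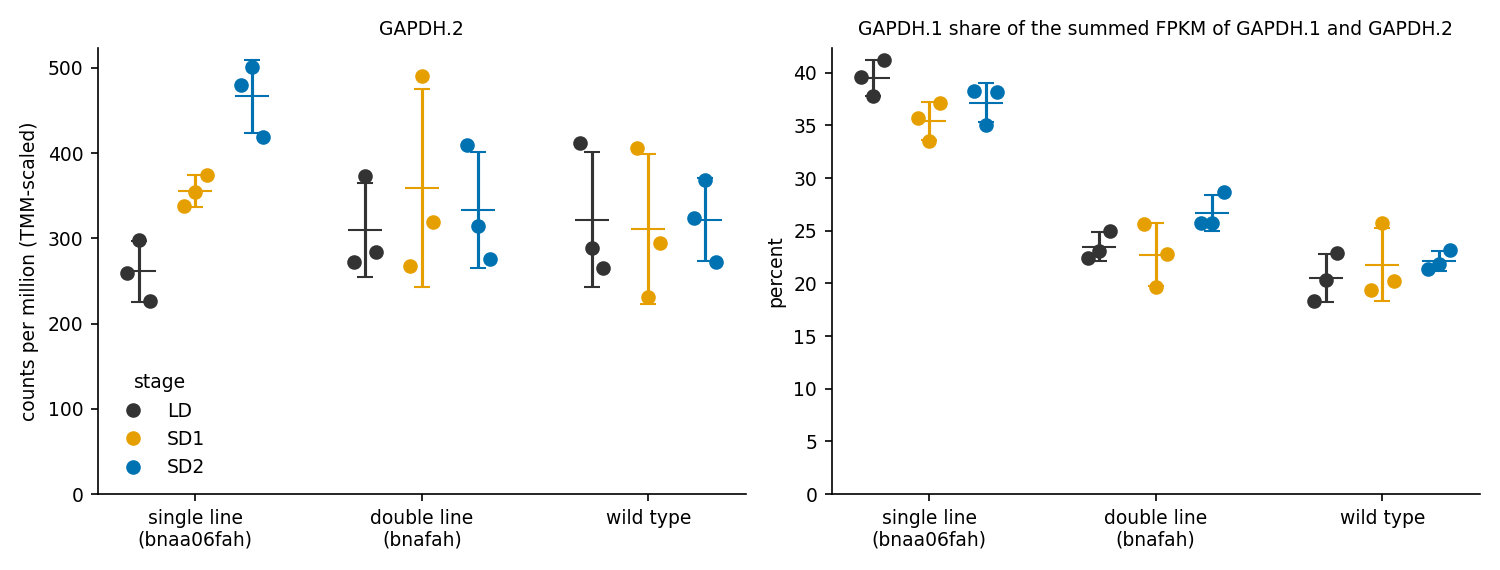
GAPDH.2 in CPM (left) and the share of GAPDH.1 in the summed FPKM of GAPDH.1 and GAPDH.2 in percent (right), by genotype and stage; dots are libraries, and bars are the mean and SD of 3 libraries. GAPDH.2 overlaps between genotypes in LD, and at SD2 the single line lies above both others. The GAPDH.1 share is 33.5% to 41.2% in the single line and at most 28.7% elsewhere.

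TOC33 and GAPDH.1 were then set beside the genes around them, using the RefSeq gene order of the Da-Ae assembly, from which no coordinates are taken. TOC33 lies near one end of chromosome C8, with 3094 tested genes before it and 23 after it. GAPDH.1 has 1749 tested genes before it and 365 after it on chromosome A8. For each, the 20 tested genes on either side were taken, 40 in all, none of which carries a gene name.

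The neighbours of TOC33 were also lower in the single line. Their median log2 difference from wild type was -1.17 in LD, -1.02 at SD1 and -1.21 at SD2, while the median over all tested genes was -0.02, -0.01 and -0.02. With edgeR at an adjusted p under 0.05, 17, 17 and 18 of the 40 were called lower and 0 higher, where 1.91%, 2.24% and 1.88% of all tested genes were called lower. TOC33 itself was further below wild type than its neighbours' median at each stage, with 13, 14 and 11 of the 40 lying lower still.

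Of these 40 neighbours, 6 had 0 counts in all 9 single-line libraries and none had 0 counts throughout the double line or wild type. The share of all tested genes at 0 throughout the single line was not counted. Such genes passed the low-count filter only through the other genotypes. One of them, BNAC08G46040D, 8 genes away, had 0 CPM in the single line, 12.3 ± 0.690 CPM in double-line leaves and 13.7 ± 5.45 CPM in wild-type leaves in LD. The gene just before TOC33, LOC106375030, was reduced but present, with 2.90 ± 0.787 CPM in the single line, 6.59 ± 1.496 CPM in double-line leaves and 7.54 ± 2.08 CPM in wild-type leaves. With genes at 0 set to the bound that 3 counts per library allow, the 3 medians were -1.16, -1.02 and -1.07.

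In the double line the neighbours of TOC33 stood near wild type, with median log2 differences of -0.11 in LD, 0.07 at SD1 and 0.26 at SD2. None of the 40 was called in LD or at SD1, where 0.652% and 0.565% of all tested genes were, and at SD2 3 were called higher and 1 lower, where 3.49% and 3.31% of all tested genes were. The fall of TOC33 in wild type at SD2 was not shared by its neighbours, whose median change was -0.03, with 2 called higher and 1 lower, where 3.22% and 2.65% of all tested genes were.

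The neighbours of GAPDH.1 were higher in the single line. Their median log2 difference from wild type was 1.06 in LD, 0.97 at SD1 and 1.06 at SD2. With edgeR at an adjusted p under 0.05, 12, 12 and 10 of the 40 were called higher and 0 lower, where 1.06%, 0.823% and 0.683% of all tested genes were called higher. In LD the difference of GAPDH.1 equalled its neighbours' median (1.06), and 20 of the 40 lay below it. At SD2 GAPDH.1 stood at 1.60, above 38 of the 40.

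One neighbour of GAPDH.1, BNAA08G24300D, 2 genes away, had 8.51 ± 1.69 CPM in the single line, 4.69 ± 0.690 CPM in double-line leaves and 4.63 ± 0.916 CPM in wild-type leaves in LD. Another, LOC106382365, had a wide spread between single-line libraries at SD2, with 34.3 ± 28.9 CPM in the single line, 10.6 ± 1.78 CPM in double-line leaves and 11.1 ± 2.502 CPM in wild-type leaves. In the double line the neighbours' medians were 0.17, 0.04 and 0.00 from LD to SD2. The SD2 change within the single line had a median of 0.20 over these neighbours, against 0.70 for GAPDH.1. Of the 40, 3 were called higher, a share near the 5.06% of all tested genes called higher there. In wild type these neighbours had a larger median SD2 change, 0.42, against 0.16 for GAPDH.1. The median over all tested genes was 0 in the single line and 0.01 in wild type.

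The same contrast appeared library by library. In the 9 single-line libraries the median neighbour of TOC33 lay at -1.21 to -0.88 from the wild-type mean of its stage, and the median neighbour of GAPDH.1 at 0.88 to 1.18. In the 9 double-line libraries these medians ran from -0.15 to 0.06 for TOC33 and from -0.08 to 0.25 for GAPDH.1. No single-line library came near the range of the other line for either gene.

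**Figure D4:**
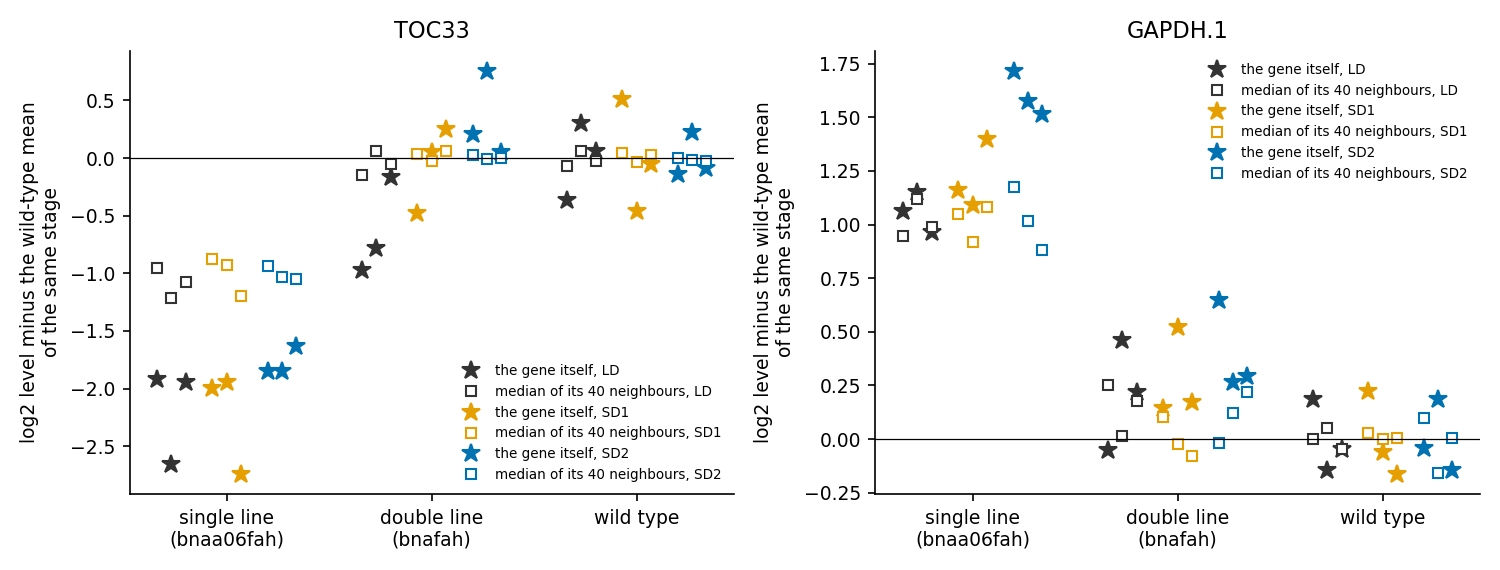
TOC33 (left) and GAPDH.1 (right), stars, and the median of the 40 tested genes around each, squares, as log2 CPM minus the wild-type mean of the same stage, one star and one square per library. In the single line the squares lie at -1.21 to -0.88 around TOC33 and at 0.88 to 1.18 around GAPDH.1, and in the double line they lie between -0.15 and 0.25.

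The shift reached well beyond 20 genes. Within 200 genes of TOC33 lay 223 tested genes, because the chromosome's gene order ends 23 genes on. The single line stood below wild type for 199 of them in LD, 199 at SD1 and 202 at SD2, and the double line for 99, 78 and 97. Over all tested genes the median single-line difference from wild type was -0.02, -0.01 and -0.02. In bins of 20 genes, all 11 full bins had a median below 0 at every stage. They were of 2 kinds: in 5 bins, 6 to 15 of 20 genes had 0 counts in every single-line library, and in the other 6 bins 0 to 3 did. The median log2 difference of these 6 bins was -1.16 to -0.38 in LD. None of the 20 genes before TOC33 and 6 of the 20 after it had 0 counts in every single-line library, and of the last 3 genes beyond these 0 did. No share over all tested genes was counted for genes at 0.

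Around GAPDH.1 the shift was even. Within 200 genes on either side the single line stood above wild type for 366 of 400 genes in LD, 368 at SD1 and 360 at SD2. The double line did so for 203, 204 and 194 of the 400. All 20 bins had a median above 0, from 0.64 to 1.19 in LD, and only 1 of the 400 genes had 0 counts throughout the single line. In the double line the bin medians in LD ran from -0.21 to 0.30 around GAPDH.1 and from -0.17 to 0.54 around TOC33. At SD1 and SD2 they ran from -0.15 to 0.21 and from -0.25 to 0.42 around GAPDH.1. Around TOC33 they ran from -0.02 to 0.35 at SD1 and from -0.20 to 0.94 at SD2, with 9 of 11 full bins above 0 at each. DNA copy number and structure of these chromosome stretches were not measured, and their part in the levels of TOC33 and GAPDH.1 was not tested.

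**Figure D5:**
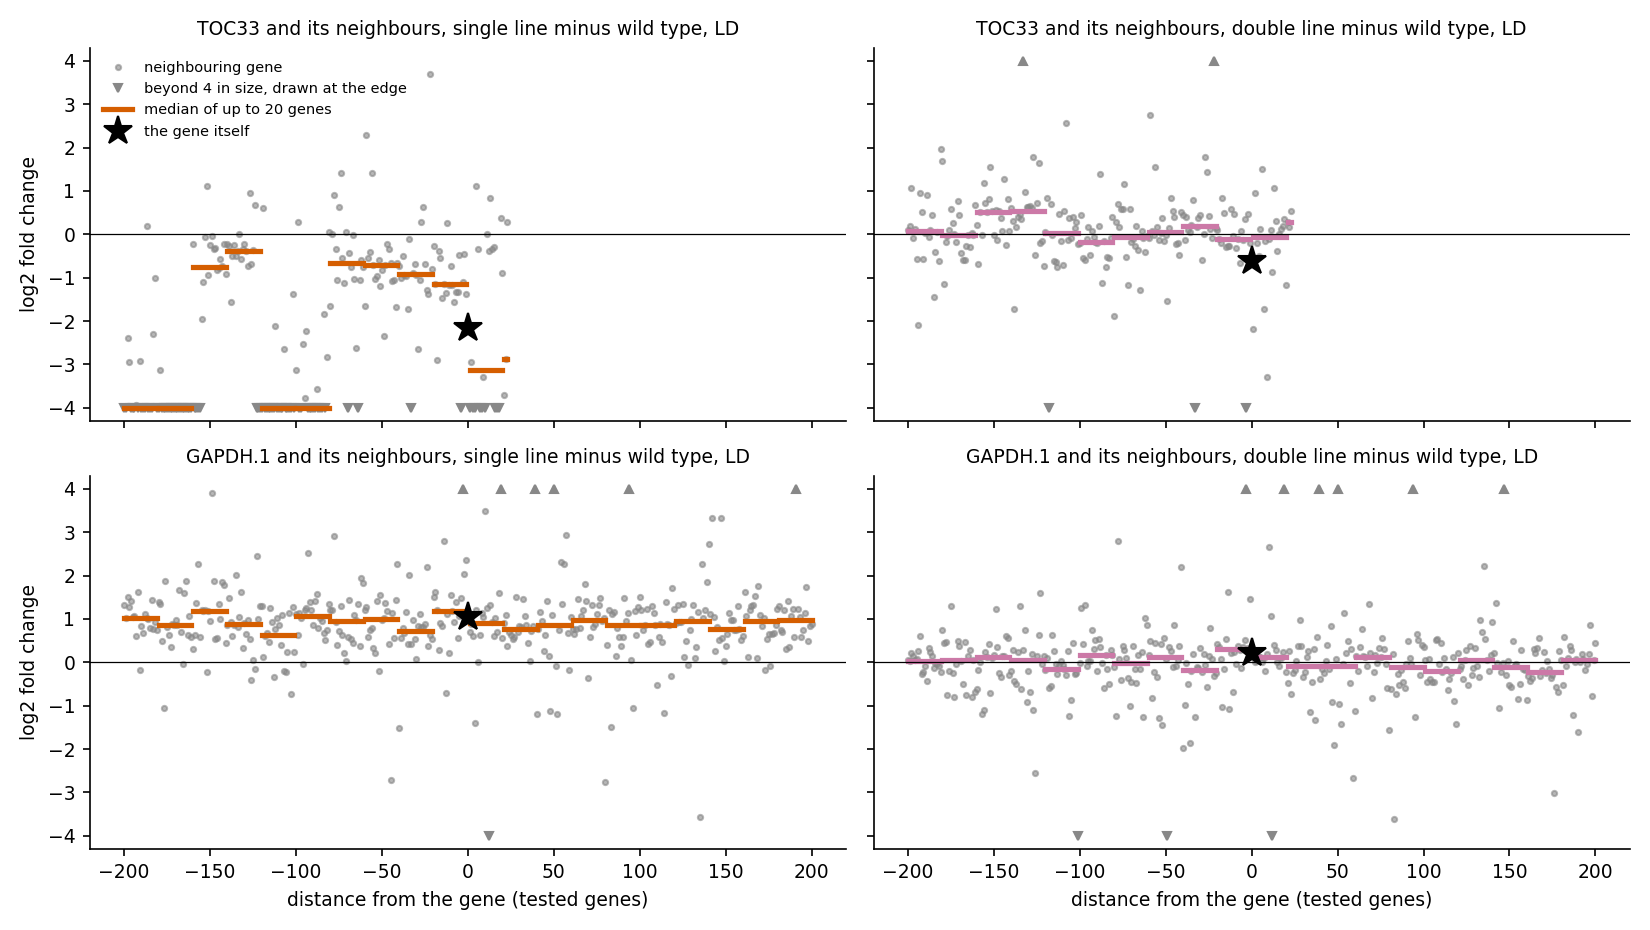
Log2 difference from wild type in long days of the tested genes up to 200 places on either side of TOC33 (top) and GAPDH.1 (bottom), for the single line (left) and the double line (right); bars are medians of 20 genes, stars are TOC33 and GAPDH.1, and values beyond 4 in size, bars included, are drawn at the edge. Single-line bars lie below 0 in all 11 full bins around TOC33 and at 0.64 to 1.19 around GAPDH.1.

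Few other genes of the same pathways carry names. Of 5 named import genes, 4 were tested, and the 3 besides TOC33 were Tic21 and BnTIC32A, both of the inner envelope, and plastid ycf1, present at 1 to 14 counts. The 6 stage comparisons, which called 0.112% to 15.7% of all tested genes, called none of the 3 except that Tic21 fell in wild type, to 14.3 ± 1.74 CPM at SD2, against 24.9 ± 1.59 CPM in LD (log2 -0.80 ± 0.24, edgeR adjusted p = 0.04996). In this comparison 2.65% of all tested genes were called lower. The edgeR call of Tic21 was lost without a low-count filter (adjusted p = 0.0606), in a fit that was not robust (0.0508), with a replicate block (0.0523) and on leaving out any 1 of the 6 libraries (0.0524 to 0.194). Tic21 did not have the low level of TOC33 in the single line, with 24.0 ± 3.79 CPM there, 21.9 ± 8.35 CPM in double-line leaves and 24.9 ± 1.59 CPM in wild-type leaves in LD. Over the 3 genes the median SD2 change in wild type was 0.76, against 0.01 over all tested genes, and it rests on BnTIC32A at 0.414 to 1.58 CPM.

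Of 6 named genes of carbon metabolism, all were tested, and 5 besides GAPDH.1 could be counted. At SD2, 1 of the 5 was called higher in the single line (GAPDH.2), where 5.06% of all tested genes were, 1 was called lower in the double line, and 0 were called in wild type, where 5.87% of all tested genes were called in either direction. The lower gene was an FBPase, fructose bisphosphatase (LOC106421663), with 31.0 ± 15.0 CPM at SD2 in the double line, against 67.8 ± 12.7 CPM in LD (log2 -1.13 ± 0.33, edgeR adjusted p = 0.0216), in a comparison where 6.88% of tested genes were called lower. The edgeR call was lost without LD replicate 1 (adjusted p = 0.0678), LD replicate 3 (0.0650), SD2 replicate 1 (0.146) or SD2 replicate 3 (0.110), and when no other groups were fitted beside double-line LD and SD2 (0.151). With 1 library left out the change ran from -1.59 to -0.87 (edgeR adjusted p = 0.00129 to 0.146). At SD2, replicate 2 had 47.9 CPM of this gene, against 19.3 and 25.8 CPM in replicates 1 and 3, and the largest fall was without it. The 5 vascular markers summed to 13.9 to 38.2 raw CPM in the double line at SD2, against 38.7 to 80.3 in LD. This sum can follow SUT2-1 more than the CesA genes, and the part of these markers was not tested. PGM, phosphoglucomutase, was at 80.1 ± 12.9 CPM at SD2, against 112 ± 11.7 CPM in LD in the single line and was not called. The median SD2 change of the 5 was -0.48 in the single line, -0.22 in the double line and -0.32 in wild type. The 5 went both ways: the other FBPase, LOC106401056, at 0.290 to 3.19 CPM over all libraries, had uncalled SD2 differences of 1.15 in the single line, -0.03 in the double line and 1.54 in wild type (edgeR adjusted p = 0.198, 0.988 and 0.0980).

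Among 476 other named genes, those whose log2 CPM followed TOC33 most closely over the 27 libraries included BSK2 (Pearson r = 0.907), a brassinosteroid signalling kinase, CPK10.1 (0.771), a calcium-dependent kinase, and PCNA (0.685), the sliding clamp of DNA replication. All 3 are placed on chromosome C8. BSK2 had 0 CPM in the 9 single-line libraries, 8.87 to 10.8 CPM in double-line leaves and 8.66 to 12.6 CPM in wild-type leaves. ATHB-12 on chromosome A9 (0.673) and GRF2a2 on chromosome A1 (0.635) completed the 5. By Spearman's rho, PCNA came 1st and BSK2 9th.

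For GAPDH.1 the closest were BnLIP2 (0.696), Pds (0.666), the phytoene desaturase of carotenoid synthesis, WRKY28.2 (0.634), plastid psbB (0.579) and HO1 (0.540), a heme oxygenase. Pds and WRKY28.2 are placed on chromosome A8. Pds had 83.7 to 115 CPM in the single line, 66.7 to 102 CPM in double-line leaves and 54.0 to 94.7 CPM in wild-type leaves, while BnLIP2 and WRKY28.2 stayed below 2 CPM in every library. TOC33 and GAPDH.1 had r = -0.882 with each other, and GAPDH.1 was the last of the 476 genes in its likeness to TOC33.

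These values follow the genotype groups, and the order changed when each library was taken as its deviation from its own group mean. TOC33 was then closest to PCNA (0.884), IPT9-3 (0.865), FeSOD (0.856), an iron superoxide dismutase, Gsa (0.810), an enzyme of chlorophyll precursor synthesis, and Myr2.Bn1 (0.770), a myrosinase. GAPDH.1 was closest to GAPDH.2 (0.833), followed by MPK19.1 (0.724), CCR2 (0.688), NIA1 (0.685), a nitrate reductase, and Ann1 (0.673), an annexin. CCR2 had 0 to 30 counts per library. TOC33 and GAPDH.1 had r = -0.06 with each other on this measure. These correlations are over 27 libraries of 9 groups, which share genotype, depth and handling, and they are given as a description.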

How the data were processed

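Leaf RNA of oilseed rape was sequenced in 9 groups of 3 libraries, grouped by the genotype and stage in the labels. The labels name TRIzol for extraction and a TruSeq kit for the libraries. The submitters' processing notes list Trim Galore and HISAT2. No version, genome build, strand setting or counting tool is stated there or in the labels. The deposited table of counts per gene, made by the authors, was used as it stands, and 1 entry that names no gene was left out. The deposited FPKM values, by a method the authors do not state, served for ratios between genes and as an alternative on a log2 scale with a pseudocount of 0.1 or 1.

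Identifiers were matched to a RefSeq table of the Da-Ae assembly, which held 85968 of them and gave 482 nuclear names. The edgeR 4.0.16 package in R 4.3.3 was used with TMM scaling, a filter by group and a robust quasi-likelihood fit of 9 group means over 27 libraries (18 residual degrees of freedom), which kept 72039 genes. There were 19 contrasts: 6 of stage, 4 of differences in the stage change and 9 of genotype. Adjusted p-values are edgeR's, by Benjamini and Hochberg's method across all 72039 genes, and calls were made under 0.05. The fit was tested on simulated counts with known changes. Their spread between libraries was smaller than the common estimate from these data, so that test does not show how often real changes are found here.

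The members, lists and bins were chosen with earlier results of these data known. Named genes are both members, the named pathway genes, the 5 of highest r with each member, and examples among the nearest and most changed neighbours. Protein sequences were not used here, so close copies were not searched for. FAH results are not reported here.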

Additional observations from a re-analysis of the deposited data

How the results depend on the processing

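The genotype differences of TOC33 and GAPDH.1 kept their sign under all 8 other fits, and leaving out 1 library turned only the double line's difference from wild type in TOC33 at SD1 (-0.28 to 0.21); the single line's difference in TOC33 at SD2 moved to -1.61 with limma on log2(FPKM + 1). The fall of TOC33 in wild type and the rise of GAPDH.1 in the single line at SD2 were called under all 8 other fits, with log2 changes of -1.24 to -0.91 and 0.64 to 0.74 when 1 library was left out. With limma on log2(FPKM + 0.1) or log2(FPKM + 1), the SD2 change of GAPDH.1 in the double line became a call (0.64 and 0.63), the uncalled SD2 change of TOC33 in the double line turned to 0.22 and 0.21, and the single line's uncalled SD1 excess over wild type in TOC33 to 0.12 and 0.14. The cause was not tested. Leaving out 1 library also turned the sign of uncalled changes: TOC33 in the double line at SD1 (-0.048 to 0.40) and SD2 (-0.33 to 0.18), the single line's SD1 excess in TOC33 (-0.28 to 0.23), GAPDH.1 at SD1 in the double line (-0.022 to 0.24) and in wild type (-0.070 to 0.15), the double line's SD1 excess in GAPDH.1 (-0.072 to 0.20), and GAPDH.2 in wild type at SD2 (-0.12 to 0.22). That GAPDH.2 change was -0.0089 with DESeq2, -0.0089 with its size factors in edgeR and -0.000675 with no filter. For FBPase LOC106401056 at SD2, limma on log2(FPKM + 0.1) and log2(FPKM + 1) turned the double line's change to 0.33 and 0.12 (-0.35 to 0.90 when 1 library was left out) and called that of wild type (1.64 and 0.88). Median single-line differences of neighbours became, for TOC33, -1.47, -1.24 and -1.33 from LD to SD2 with 10 genes on either side, -1.08 at SD2 with 40, and -1.38, -1.32 and -1.33 with 200, a window chosen after seeing the data; for GAPDH.1 they became 0.84 in LD and 0.87 at SD2 with 40, and 0.90 in LD with 200. Over all genes DESeq2 called 8550 in wild type at SD2, against 4229 with edgeR, 11091 against 7180 in the single line, and 8127 against 4446 for the difference between double line and wild type in that change. A fit of each contrast's own libraries called 11659 against 7180 genes in the single line and 0 against 11340 in the double line, and leaving out 1 library gave 37 to 5972 in wild type, 2244 to 4617 in the single line and 4253 to 19117 in the double line. Of 128 such counts from other fits, 39 differed from edgeR's by over 1.5 times. Libraries with the same replicate number did not deviate together (r from -0.262 to 0.213), so the numbers do not pair them; with the replicate block the fall of TOC33 was -1.07 (edgeR adjusted p = 0.0457), the rise of GAPDH.1 was 0.70 (0.0201), and the call of Tic21 was lost (0.0523). By Spearman's rho, 9 of the 20 closest genes left the first 5. A search for close copies at 2 identity limits was not run. With 3 libraries a group, precision is limited by the spread between them more than by depth.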
